A study of Mus musculus with 6 samples.

Results

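The dystrophin-glycoprotein complex was described through 8 of its genes in hearts of Cenpf knockout and wild-type mice. The genes were Dmd, Utrn, Dag1, Sgca, Sgcb, Sgcd, Sntb1 and Dtna. A probe was taken for a gene when the array annotation gave it exactly 1 symbol equal to that gene's, and the probe of highest mean over the 6 arrays was kept. Each of the 8 genes had 1 such probe, so 8 probes were used out of 21789 with a single symbol, which stand for 19938 genes. Every array value of all 8 lay above the background level of 6.35 on the log2 scale, by at least 1.44. That level is the 95th percentile of mean signal over 1212 probes for odorant and pheromone receptors, which a heart is taken not to express.

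The samples were hearts of untreated mice aged 12 months, 3 labelled as cenpf knock-out and 3 as wild-type, each on its own Affymetrix mouse gene array. The label of biological replicates was given to the 3 hearts of a group. Cenpf codes for a large protein that binds microtubules and kinetochores. The labels do not say which strain or sex was used, which part of Cenpf was deleted, or in which cells.

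The complex spans the membrane of muscle cells and ties the actin cytoskeleton to the extracellular matrix. Dystrophin binds actin at one end and beta-dystroglycan at the other, alpha-dystroglycan holds laminin outside the cell, and the sarcoglycans form a subcomplex beside them in the membrane. Syntrophins and dystrobrevins attach at the inner face and bring channels and signalling enzymes to it. Inherited loss of dystrophin or of a sarcoglycan causes muscular dystrophy, often with a dilated heart.

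Cenpf was checked first. It read 6.35, 6.10 and 6.68 in the knockout hearts and 8.75, 8.54 and 8.04 in the wild-type hearts, on the log2 scale, so the groups did not overlap. Before any result on the complex, arrays that stood apart within their groups need naming. Over 15513 probes above background, wild-type replicate 3 differed from the knockout hearts by a root mean square of 0.228 to 0.257 on the log2 scale, and from wild-type replicates 1 and 2 by 0.304 and 0.301. Knockout replicate 1 differed from knockout replicates 2 and 3 by 0.287 and 0.264, while those differed from each other by 0.176. For each of the 8 genes the difference without at least 1 of these arrays is therefore given as well. Differences without both are given in the closing section on processing. Of the 8 ventricular cardiomyocyte markers listed, 8 lay above background in at least 1 group.

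None of the 8 genes passed the test between knockout and wild-type hearts (0 of 8 at an adjusted p under 0.05 by limma, where 0.0275% of all probes passed). Sntb1 and Dtna, which code for beta-1-syntrophin and alpha-dystrobrevin, had knockout values all below the wild-type values, with fitted differences of -1.02 and -0.37 on the log2 scale. For dystrophin itself the difference was -0.17, and for its relative utrophin it was 0.24. Dag1 and Sgca were also higher on average in knockout hearts, by 0.23 and 0.09, while Sgcb and Sgcd differed by -0.29 and -0.13. At an unadjusted p under 0.05, 2 of the 8 passed, both lower in knockout hearts, where 9.9% of all probes did so. Groups that did not overlap were found for 2 of the 8, against 14.8% of all probes, and in both the knockout hearts were lower, as in 7.47% of all probes. The median difference over the 8 was -0.15, against -0.01 over all probes. The 8 genes were not tested as a group.

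**Figure D1:**
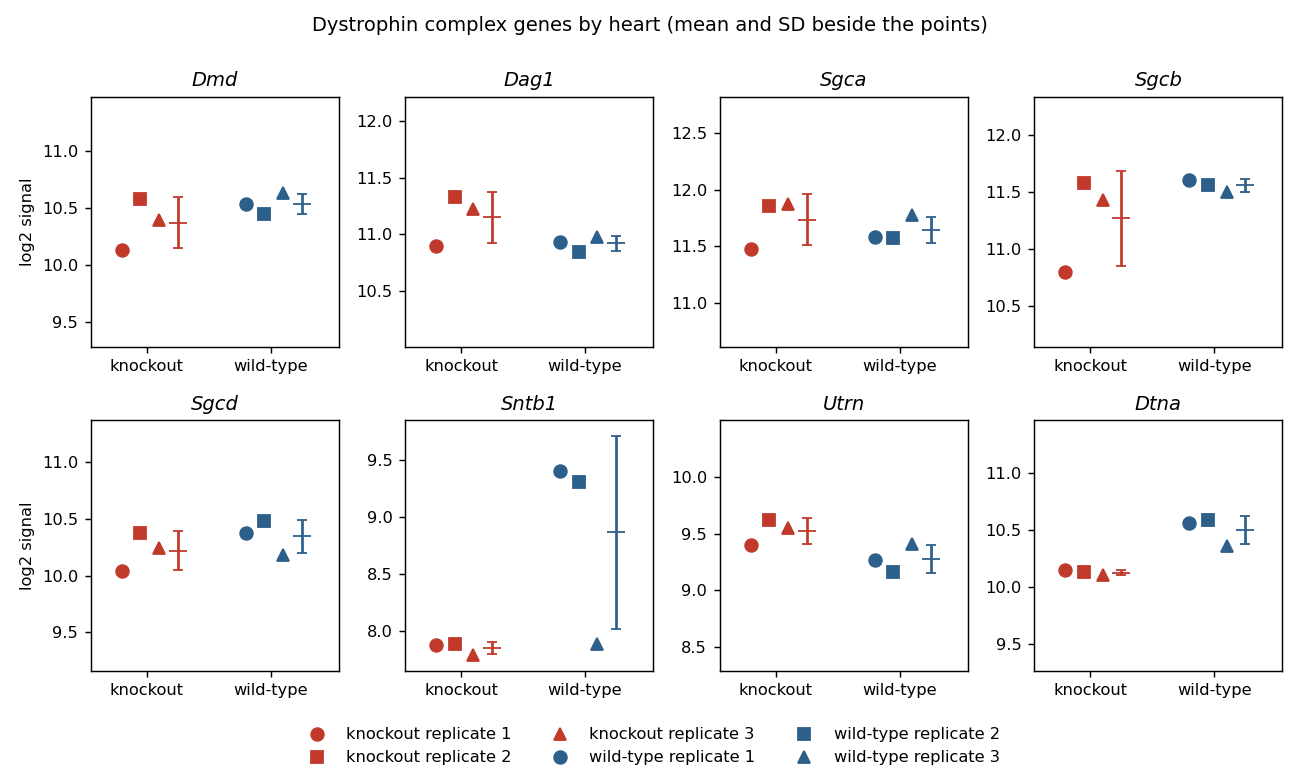
Log2 signal of the 8 genes in each heart, knockout hearts left (red) and wild-type hearts right (blue), with symbols for replicate 1 (circle), 2 (square) and 3 (triangle). The horizontal dash and bar beside the points are the mean and SD of 3 hearts, and every panel spans the same range of log2 units. Sntb1 in wild-type replicate 3, at 7.89, sits with the knockout hearts rather than with the other wild-type hearts.

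**Figure D2:**
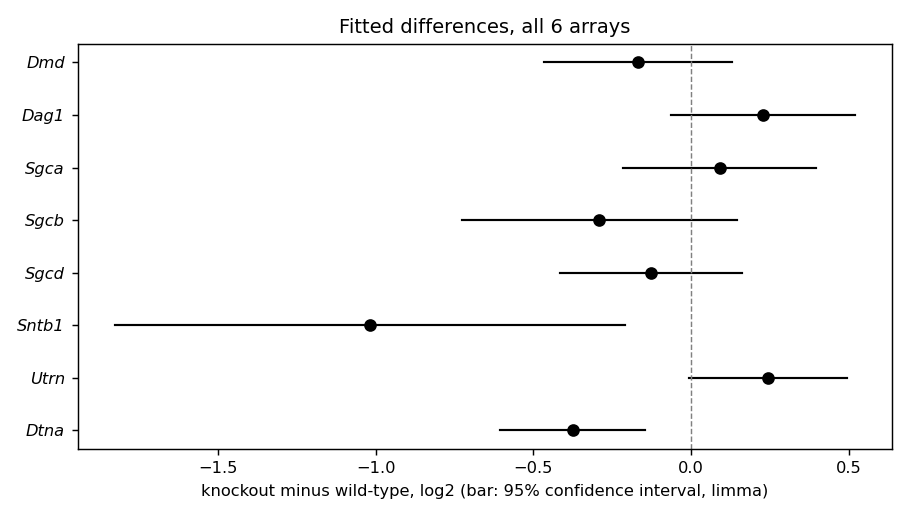
Fitted difference of each gene, knockout minus wild-type, on the log2 scale, with its 95% confidence interval from limma. The intervals of Sntb1 and Dtna lie below 0, before adjustment for the number of probes tested, and the other 6 include 0.

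Dmd codes for dystrophin, the rod-shaped protein that carries the link from actin to the membrane. It read 10.13, 10.58 and 10.40 in the knockout hearts and 10.54, 10.45 and 10.63 in the wild-type hearts. The groups overlapped, and knockout replicate 1 was the lowest of the 6 arrays. The means were 10.37 ± 0.22 in knockout hearts and 10.54 ± 0.09 in wild-type hearts (SD, n = 3). The difference was -0.17 (standard error 0.13; limma, adjusted p = 0.685), and its 95% interval ran from -0.47 to 0.13. Leaving out knockout replicate 1 gave -0.05, and leaving out knockout replicate 2 gave -0.27. The 95% interval with all 6 arrays spans a fall of 0.47 to a rise of 0.13 on the log2 scale. It is not adjusted for the number of probes and does not exclude larger changes.

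Utrn codes for utrophin, a relative of dystrophin that is found more widely among tissues and can partly take its place at the membrane in mice lacking dystrophin. The knockout hearts read 9.40, 9.62 and 9.55, and the wild-type hearts 9.26, 9.17 and 9.41. Wild-type replicate 3 and knockout replicate 1 nearly met, so the groups overlapped by a narrow margin. The means were 9.52 ± 0.11 in knockout hearts and 9.28 ± 0.12 in wild-type hearts (SD, n = 3). The difference of 0.24 had a standard error of 0.11 (limma, adjusted p = 0.514) and a 95% interval from -0.0071 to 0.49. It ranged from 0.19 without wild-type replicate 2 to 0.31 without wild-type replicate 3, and did not pass in either case.

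Dag1 codes for the precursor that is cut into alpha- and beta-dystroglycan, the laminin receptor of the complex and its membrane anchor. It read 10.90, 11.33 and 11.22 in the knockout hearts and 10.94, 10.85 and 10.98 in the wild-type hearts. Knockout replicates 2 and 3 lay above all wild-type hearts, and knockout replicate 1 lay among them. Mean levels were 11.15 ± 0.22 in knockout hearts and 10.92 ± 0.07 in wild-type hearts (SD, n = 3). The difference was 0.23 (standard error 0.13; limma, adjusted p = 0.577; 95% interval from -0.07 to 0.52). It was 0.35 with knockout replicate 1 left out and 0.14 with knockout replicate 2 left out, and passed in neither fit (limma, adjusted p = 0.388 and 0.845).

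The sarcoglycans are single-pass membrane proteins that steady dystroglycan. Sgca, the alpha chain, read 11.48, 11.85 and 11.88 in the knockout hearts and 11.58, 11.58 and 11.78 in the wild-type hearts. The groups overlapped, with knockout replicate 1 lowest and the other knockout hearts highest. The difference was 0.09 (standard error 0.13; limma, adjusted p = 0.844; 95% interval from -0.22 to 0.40), which became 0.22 when knockout replicate 1 was left out and 0.020 when knockout replicate 3 was. Sgcb, the beta chain, read 10.79, 11.58 and 11.43 in the knockout hearts and 11.61, 11.56 and 11.50 in the wild-type hearts. Knockout replicate 1 stood 0.71 below the mean of the other knockout hearts, while the wild-type hearts lay within 0.11 of each other. The difference of -0.29, (standard error 0.19; limma, adjusted p = 0.631; 95% interval from -0.73 to 0.14), came to -0.05 without that array and to -0.44 without knockout replicate 2. Sgcd, the delta chain, read 10.04, 10.38 and 10.24 in the knockout hearts and 10.37, 10.48 and 10.18 in the wild-type hearts. Its groups overlapped, and the lowest value was again that of knockout replicate 1. Its difference was -0.13 (standard error 0.13; limma, adjusted p = 0.760; 95% interval from -0.41 to 0.16), which became -0.04 without that array and -0.21 without either wild-type replicate 3 or knockout replicate 2.

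Dmd, Sgca, Sgcb and Sgcd thus had their lowest value of all 6 arrays in the same heart. That was 4 of the 8 genes, where knockout replicate 1 was the lowest array for 18.3% of all probes. The 4 were grouped by this order, so their mean had to be lowest there. It was 10.61, 11.10 and 10.99 in the knockout hearts and 11.02, 11.02 and 11.02 in the wild-type hearts. Over all 8 genes the mean was 10.10, 10.42 and 10.33 in the knockout hearts and 10.53, 10.50 and 10.34 in the wild-type hearts. Of the 8 genes 6 were lowest within the knockout group in knockout replicate 1, the exceptions being Sntb1 and Dtna. The share of all probes with that order was not counted. It held for 7 of 11 membrane partners described below. Cav3, Aqp4, Kcnj2, Kcnj12, Ank2 and Ank3 among them were lowest of all 6 arrays there. Among the other complex genes, 3 were lowest and 3 highest within the knockout group there. The sarcoglycan gene Sgce read 10.20 there, above 9.72 and 9.74 in the other knockout hearts. The SD was larger among the knockout than among the wild-type hearts for 5 of the 8, namely Dmd, Dag1, Sgca, Sgcb and Sgcd, and for 47.3% of all probes. Markers of other cells moved in the same heart. Of 7 fibroblast markers 7 were highest within the knockout group in knockout replicate 1, with a list mean of 10.60 against 9.88 and 9.99 in the other knockout hearts and 10.001 to 10.50 in wild-type hearts. The same held for 7 of 7 macrophage markers, with list means of 9.98 there, 9.22 and 9.41 in the other knockout hearts and 9.18 to 9.70 in wild-type hearts. All of these markers lay above background. The share of all probes highest within the knockout group in that heart was not counted. Of 6 atrial cardiomyocyte markers 5 were highest within the knockout group in that heart, with a list mean of 8.56 there, 8.28 and 8.24 in the other knockout hearts and 7.95 to 8.23 in wild-type hearts, and Sln and Bmp10 among them were below background in both groups. Being highest there was not limited to these lists. It held for 5 of 8 skeletal muscle, 4 of 7 endothelial and 3 of 4 adipocyte markers. For Schwann and neuronal markers it was 2 of 3, and for smooth muscle 2 of 6. Myh4, Myh1 and Lep among these were below background in both groups. Ventricular cardiomyocyte markers averaged 13.49, 13.65 and 13.57 in the knockout hearts and 13.52 to 13.58 in wild-type hearts. Of these 8 markers, 1 was highest and 4 were lowest within the knockout group in replicate 1. The part of these cells in the low values was not tested. In heart tissue of mixed cells, fewer cells of a type and less RNA per cell cannot be told apart.

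**Figure D3:**
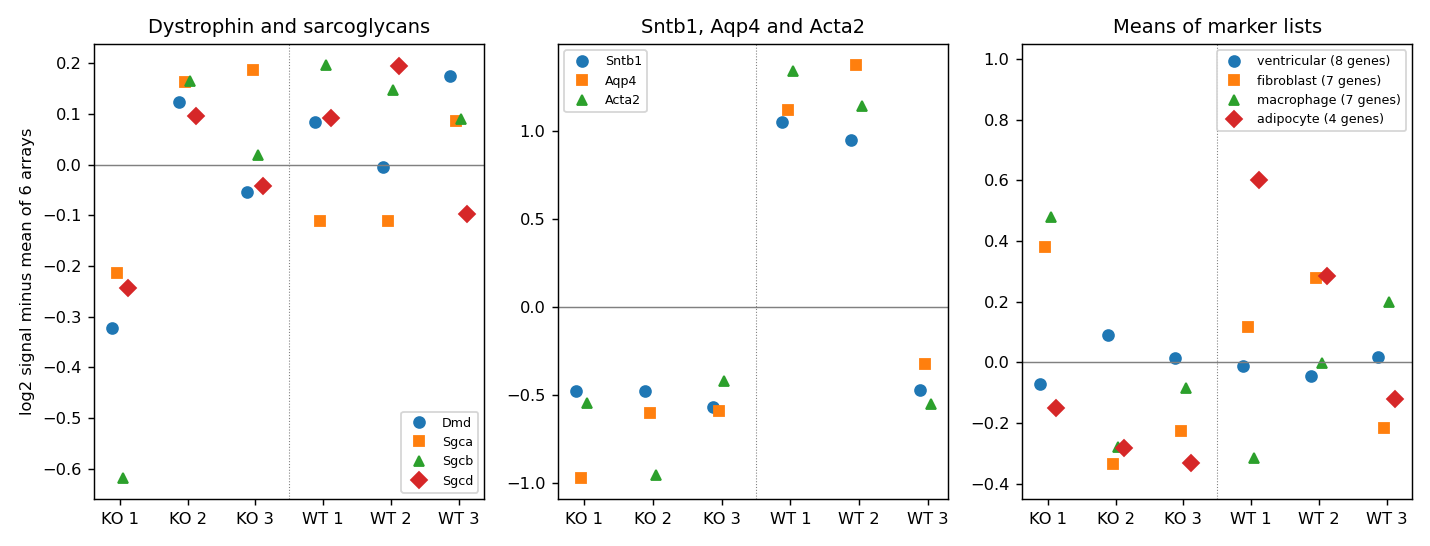
Log2 signal minus the mean of the 6 arrays, for knockout (KO) hearts left and wild-type (WT) hearts right of the dotted line, each panel on its own scale. The left panel shows Dmd and 3 sarcoglycan genes, which are all lowest in KO 1. The middle panel shows Sntb1 with Aqp4 and Acta2, which are high in WT 1 and WT 2 alone. The right panel shows list means of 4 sets of cell type markers.

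Because these 4 genes were low together in one heart, the sequence before their start sites is shown. The windows are the 250 bases before the start in the RefSeq promoter table of GRCm38.p6, which held 6 of the 8 genes. Dmd has 2 windows there, 2.1 Mb apart, since the gene has several promoters, and the array gives 1 value for the gene that is not assigned to either. Capitals mark every E-box (CANNTG, the motif of basic helix-loop-helix factors) and every CArG box (the motif of serum response factor), searched on both strands. In none of these windows did the motifs overlap.
Dmd, upstream window, chrX:82948620-82948869, plus strand: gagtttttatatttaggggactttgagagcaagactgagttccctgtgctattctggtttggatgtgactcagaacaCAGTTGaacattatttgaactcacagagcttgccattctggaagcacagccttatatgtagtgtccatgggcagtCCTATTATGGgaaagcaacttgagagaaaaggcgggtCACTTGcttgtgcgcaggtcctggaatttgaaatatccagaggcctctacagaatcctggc
Dmd, downstream window, chrX:85048045-85048294, plus strand: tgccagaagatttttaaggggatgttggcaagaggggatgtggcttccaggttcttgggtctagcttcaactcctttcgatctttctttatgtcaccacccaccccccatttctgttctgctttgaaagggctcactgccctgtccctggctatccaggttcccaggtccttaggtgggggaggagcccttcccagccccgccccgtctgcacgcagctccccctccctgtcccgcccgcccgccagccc
Sgca, chr11:94976328-94976577, minus strand: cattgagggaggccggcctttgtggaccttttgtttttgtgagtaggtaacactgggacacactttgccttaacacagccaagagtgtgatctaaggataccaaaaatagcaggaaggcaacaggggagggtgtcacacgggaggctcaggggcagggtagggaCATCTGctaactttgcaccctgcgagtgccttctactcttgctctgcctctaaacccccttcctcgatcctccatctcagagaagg
Sgcb, chr5:73647738-73647987, minus strand: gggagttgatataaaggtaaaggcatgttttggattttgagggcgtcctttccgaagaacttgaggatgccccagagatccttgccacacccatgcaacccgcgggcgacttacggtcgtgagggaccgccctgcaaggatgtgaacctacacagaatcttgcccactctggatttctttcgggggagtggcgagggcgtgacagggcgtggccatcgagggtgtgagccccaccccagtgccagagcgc
Sgcd, chr11:47379326-47379575, minus strand: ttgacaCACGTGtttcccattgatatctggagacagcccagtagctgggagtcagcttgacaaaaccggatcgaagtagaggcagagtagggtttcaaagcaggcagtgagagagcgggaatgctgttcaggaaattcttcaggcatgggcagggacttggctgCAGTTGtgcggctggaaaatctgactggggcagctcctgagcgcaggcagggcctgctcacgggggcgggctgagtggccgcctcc
The upstream Dmd window held 2 E-boxes and 1 CArG box, CCTATTATGG. The downstream Dmd window and the Sgcb window held neither motif. Sgca had 1 E-box and Sgcd had 2. Among 32851 windows of the same length, 66.2% held an E-box and 1.47% a CArG box. Thus the 4 genes shared neither motif in these windows, and a match describes letters, not a bound site.

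Sntb1 codes for beta-1-syntrophin, an adaptor that binds dystrophin and carries a PDZ domain for channels and enzymes. It read 7.88, 7.88 and 7.79 in the knockout hearts and 9.41, 9.31 and 7.89 in the wild-type hearts. Wild-type replicates 1 and 2 stood high, while wild-type replicate 3 stood 1.47 below their mean and 0.04 above the mean of the knockout hearts. The groups did not overlap, by less than 0.01. Means were 7.85 ± 0.05 in knockout hearts and 8.87 ± 0.85 in wild-type hearts (SD, n = 3). The difference of -1.02 had a standard error of 0.35 (limma, adjusted p = 0.457), which is 2.02-fold lower in knockout hearts, and a 95% interval from -1.83 to -0.21. Without wild-type replicate 3 it was -1.51 and passed (limma, adjusted p = 0.00280), where 1.34% of all probes passed. In the other 5 leave-one-out fits 0 of the 8 genes were called. All-probe shares there were 0.00459% without wild-type replicate 1 and likewise without wild-type replicate 2, and 0.0275%, 0.0138% and 0.00918% without knockout replicates 1, 2 and 3. The call without wild-type replicate 3 compares the knockout hearts with the 2 wild-type hearts that differed from the third. Without wild-type replicate 1 the difference was -0.75, and without wild-type replicate 2 it was -0.80.

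Other genes shared this division of the wild-type hearts. In 59.6% of all probes, wild-type replicate 3 lay nearer the knockout mean than the mean of wild-type replicates 1 and 2. The share was 62.4% of probes above background, and 4 of the 8 genes. Aqp4, a water channel held at the membrane through syntrophin, read 6.59, 6.96 and 6.98 in the knockout hearts and 8.68, 8.94 and 7.24 in the wild-type hearts. Acta2, the smooth muscle actin gene, read 11.07, 10.66 and 11.20 in the knockout hearts and 12.96, 12.76 and 11.07 in the wild-type hearts. In both genes wild-type replicate 3 sat close to or among the knockout hearts. Of 6 smooth muscle markers, Acta2 was the 1 with both of wild-type replicates 1 and 2 above all other arrays, and the list mean was 8.26 to 8.40 in knockout hearts and 8.32 to 8.79 in wild-type hearts. Of 4 adipocyte markers 2, Adipoq and Retn, had that order, and Lep was below background in both groups. The adipocyte list mean was 6.30 to 6.48 in knockout hearts and 7.23, 6.92 and 6.51 in wild-type replicates 1, 2 and 3. That order was not limited to these 2 lists. It held for 2 of 7 fibroblast, 1 of 7 endothelial, 1 of 8 ventricular and 1 of 6 atrial markers. For skeletal muscle it was 0 of 8 and for macrophages 0 of 7. Sntb2, Pomt2, Dpm3, Agrn, Cav3 and Mapk12, from the lists around the complex, also had it. The share of all probes with it was not counted. The part of any of these cells in the Sntb1 values was not tested.

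Dtna codes for alpha-dystrobrevin, a relative of dystrophin that binds it and carries syntrophins. The knockout hearts read 10.15, 10.13 and 10.11, and the wild-type hearts 10.56, 10.59 and 10.36. The knockout hearts lay within 0.04 of each other and below every wild-type heart. As with Sntb1, wild-type replicate 3 was the lowest of its group, but here it stayed 0.23 above the knockout mean. Means were 10.13 ± 0.02 in knockout hearts and 10.50 ± 0.12 in wild-type hearts (SD, n = 3). The difference was -0.37 with a standard error of 0.10, or 1.30-fold lower in knockout hearts, and it did not pass (limma, unadjusted p = 0.00542, adjusted p = 0.384; 95% interval from -0.61 to -0.14). With each array left out it ranged from -0.45 without wild-type replicate 3 (limma, adjusted p = 0.0893) to -0.33 without wild-type replicate 2. Dtna moved least with the choice of arrays, as the plot of leave-one-out differences shows, and none of those fits gave a call.

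**Figure D4:**
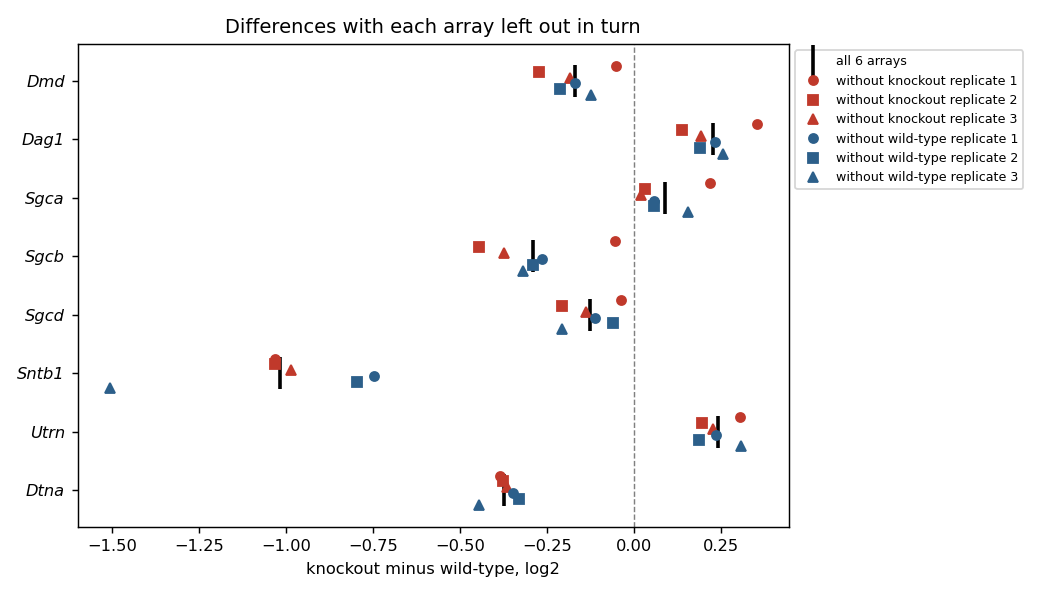
Fitted difference, knockout minus wild-type, on the log2 scale with all 6 arrays (black line) and with each array left out (red symbols for knockout, blue for wild-type arrays). Removing knockout replicate 1 brings Dmd, Sgcb and Sgcd to between -0.05 and -0.04, and removing wild-type replicate 3 takes Sntb1 to -1.51.

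Genes around the complex were read from 4 lists, with 43 genes measured by a probe with a single symbol. None of the 43 passed the adjusted threshold by limma. At an unadjusted p under 0.05, 4 were higher and 2 lower in knockout hearts, beside 4.66% and 5.24% of all probes. Groups did not overlap for 8 of the 43, with knockout hearts higher in 5 and lower in 3, against 14.8% of all probes. The median difference over the 43 was 0.02, and 41 of them lay above background in at least 1 group.

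Of the other complex genes, 8 were measured, with 4 higher, 4 lower and a median difference of -0.02. Those with the smallest p above background were Sntg2, a gamma-syntrophin, with 0.18, Sntb2, beta-2-syntrophin, with -0.19, and Sspn, with 0.15. Sspn codes for sarcospan, a membrane protein bound to the sarcoglycans, and read 10.27, 10.55 and 10.64 in knockout hearts and 10.41, 10.37 and 10.22 in wild-type hearts. The adjusted p of the 3 lay between 0.646 and 0.697 (limma). Sgcz and Sntg1 were below background in both groups.

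Enzymes that build the laminin-binding sugar of alpha-dystroglycan were measured for 14 genes, 8 higher and 6 lower, with a median difference of 0.03. Pomt2, an O-mannosyltransferase of the first step, read 8.66, 8.78 and 8.78 in the knockout hearts and 9.19, 9.12 and 8.81 in the wild-type hearts. The groups did not overlap, and wild-type replicate 3 was nearest the knockout hearts. The difference was -0.30 (limma, adjusted p = 0.486). Pomk, a kinase of the same sugar chain, differed by 0.13 and B4gat1, a transferase that primes the laminin-binding part, by 0.09. Groups did not overlap for 4 of the 14, with knockout hearts higher in 3, Pomk and B4gat1 among them, and lower in Pomt2.

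Ligands and matrix partners of dystroglycan were measured for 10 genes, 5 higher and 5 lower, with a median difference of 0.03. Lama5, a laminin alpha chain, read 8.45, 9.04 and 9.01 in knockout hearts and 8.17, 7.999 and 8.66 in wild-type hearts. The groups overlapped through knockout replicate 1 and wild-type replicate 3, and the difference was 0.55 (limma, adjusted p = 0.472). Without both of those arrays, a choice made after the data were seen, Lama5 and Aqp4 passed, as did 1.01% of all probes. Lama2, the laminin chain of muscle basement membrane whose loss causes congenital dystrophy, differed by 0.13 (limma, adjusted p = 0.665). Bgn, a matrix proteoglycan, differed by 0.28 (limma, adjusted p = 0.570).

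Membrane and cytoskeletal partners were measured for 11 genes, 6 higher and 5 lower, with a median difference of 0.02. Synm codes for synemin, an intermediate filament protein that binds dystrophin and utrophin. It read 8.12, 7.88 and 8.09 in the knockout hearts and 7.69, 7.72 and 7.64 in the wild-type hearts, and the groups did not overlap. The difference was 0.35 (standard error 0.10; limma, adjusted p = 0.404). Plec, which codes for the linker protein plectin, read 8.79, 9.28 and 9.03 in the knockout hearts and 8.57, 8.49 and 8.87 in the wild-type hearts. Its groups overlapped through wild-type replicate 3, with a difference of 0.39 (limma, adjusted p = 0.480). Aqp4 differed by -1.45 (limma, adjusted p = 0.386) and passed without wild-type replicate 3, as the 1 call of the 43 in that fit.

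**Figure D5:**
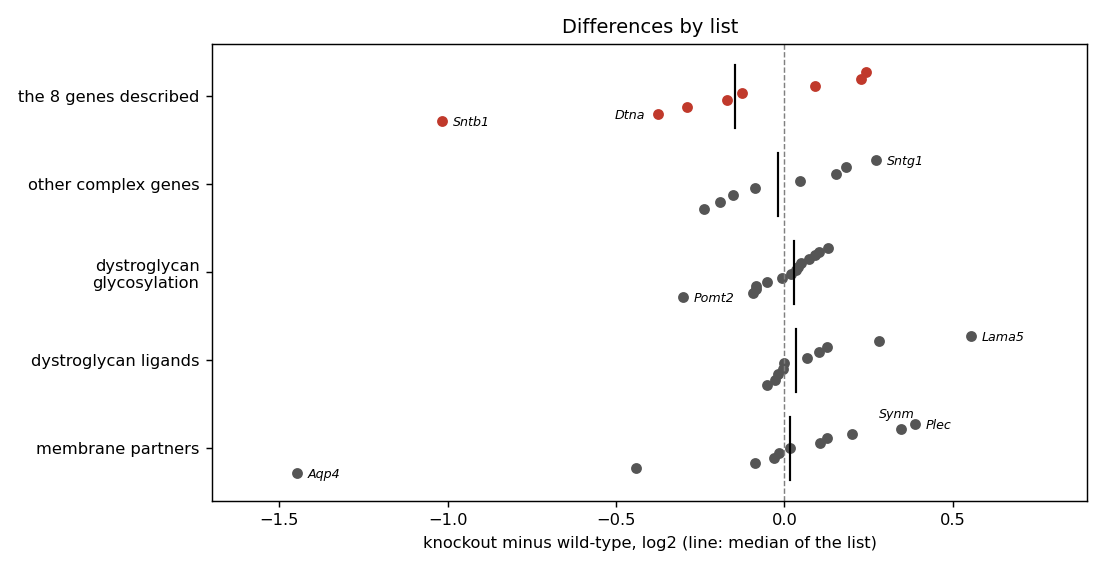
Fitted difference of each measured gene, knockout minus wild-type, on the log2 scale, for the 8 genes described (red) and 4 lists around them (grey), with the median of each list as a black line. Names mark genes at an unadjusted p under 0.05. Sntb1 at -1.02 and Aqp4 at -1.45 stand farthest from 0, and none of the genes drawn passed the adjusted threshold.

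The genes whose levels followed Dmd most closely over the 6 arrays were Yipf7, Gpatch8 and Spata21. After each gene was centred on its own mean, they differed from Dmd by a root mean square of 0.038, 0.045 and 0.047 on the log2 scale, where Dmd itself varied by 0.163. For Utrn they were Rilpl1, Tead1 and Zdhhc14, with 0.012, 0.016 and 0.017, where Utrn varied by 0.155. They were picked as the nearest of 14657 probes over 6 arrays, and nothing is drawn from them about shared control.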

How the data were processed

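RNA of 6 mouse hearts, 3 Cenpf knockout and 3 wild-type, was labelled with biotin and hybridised to Affymetrix arrays, per the labels' protocols. The deposited values are log2 signals, and the submitters' processing notes name RMA and Partek 6.6. No source used here states the settings or a genome build. Array medians lay between 6.92 and 6.97, so no further normalization was applied. Array signals have no read depth, so precision rests on having 3 arrays per group.

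The test was limma 3.58.1 under R 4.3.3 (lmFit, then eBayes, two-sided), on the log2 values of probes with exactly 1 symbol in the array annotation. Benjamini-Hochberg adjustment ran over all 21789 probes, also for the p-values printed for single genes. Differences are knockout minus wild-type. In 10 simulations, 200 genes were changed among 21789 probes. At an adjusted p under 0.05, 75.4% of 2-fold and 98.1% of 4-fold changes were recovered, and false calls averaged 6.9. Recovery was not measured for arrays that stand apart as a whole, as knockout replicate 1 and wild-type replicate 3 did. These rates may therefore be too high for the real hearts. Figures were drawn with matplotlib 3.10.9.

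The 8 genes and the gene lists were chosen with earlier results of these data known. Named from each list were called genes and the 3 of smallest p above background, and, for Dmd and Utrn, the 3 nearest profiles other than predicted, receptor and small RNA genes. Alternatives were 3 normalizations, a filter on dim probes, averaged probes per gene, and all probes in both the fit and the adjustment. Further ones were 2 variance models, a replicate block and each array left out. Some genes of these lists are not reported here.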

Additional observations from a re-analysis of the deposited data

How the results depend on the processing

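The sign of the difference of each of the 8 genes was the same under all 16 alternatives. In some of these it could not change, because each gene has 1 probe and the fit is balanced. Those were the dim-probe filter, averaged probes, all probes of the table, the variance model with a trend, and the replicate block. Without knockout replicate 1 and wild-type replicate 3 together, Dmd came to -0.0054, Sgca to 0.29, Dag1 to 0.38 and Utrn to 0.37. In that fit Sgcb came to -0.08, Sgcd to -0.12 and Dtna to -0.46. Sntb1 alone of the 8 gave a call under the alternatives. Its difference passed in 2 of them, at -1.51 without wild-type replicate 3 (limma, adjusted p = 0.00280) and at -1.52 without knockout replicate 1 and wild-type replicate 3 together (limma, adjusted p = 0.0182), the second chosen after seeing the data. Over its alternatives the adjusted p of Sntb1 reached 0.820, and that of Dtna ran from 0.0893 to 0.805. The number of the 8 genes called was 0 to 1 with 1 array left out, 1 without those 2 arrays and 2 at an unadjusted p under 0.05. Of the 43 genes around the complex, the numbers were 0 to 1, 2 and 6. Over all probes the count of 6 became 1 to 293 with 1 array left out and 220 without both arrays. It was 1 with all probes of the table in the fit and the adjustment, counted among those with a single symbol. It was 22 with a trend and robust variance model, 33 with array weights and 2157 unadjusted. Cenpf, at -2.07 (limma, adjusted p = 0.0286), did not pass with all probes in the fit and the adjustment (-2.07, adjusted p = 0.281). Its standard error also changed there, from 0.21 to 0.23. Cenpf passed in 1 of 6 fits with 1 array left out. It ranged there from -2.27 without wild-type replicate 3 (adjusted p = 0.00508) to -1.92, with adjusted p from 0.0689 to 0.198 in the other 5. The cause of these changes was not tested. With the replicate number as a block 11 probes were called and 0 of the 8 genes. Deviations from the group mean of same-numbered hearts correlated at -0.19, -0.25 and -0.0094, and those of differently numbered hearts at -0.062 to 0.23. With so few hearts per group these values cannot tell whether the numbers pair the hearts.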

Other observations

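For Sntb1 and Dtna, whose nearest profiles were looked up after their values were seen, other genes had profiles close to theirs over the 6 arrays. Slitrk4, which codes for a neuronal membrane protein, read 6.85, 6.78 and 6.62 in the knockout hearts and 8.35, 8.37 and 6.97 in the wild-type hearts. Rgs6, a regulator of G protein signalling that acts on the heart rate, read 6.53, 6.78 and 6.39 in the knockout hearts and 8.10, 8.11 and 6.53 in the wild-type hearts. Scd2, a fatty acid desaturase gene, read 9.78, 9.57 and 9.61 in the knockout hearts and 11.02, 10.93 and 9.53 in the wild-type hearts. In all 3, wild-type replicate 3 lay near or among the knockout hearts. That order follows from picking them as nearest to Sntb1 among 14657 probes, and nothing is drawn from it about shared control. None of the 3 passed with all arrays (limma, adjusted p from 0.400 to 0.498).

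Nearest to Dtna were Urod, an enzyme gene of haem synthesis, Zbtb26, a zinc finger gene, and Diablo, which codes for a mitochondrial protein released in apoptosis. Urod read 10.19, 10.18 and 10.20 in the knockout hearts and 10.57, 10.62 and 10.40 in the wild-type hearts. As in Dtna, the knockout hearts lay close together below every wild-type heart, which follows from its being picked as nearest to Dtna. The differences of the 3 were -0.34, -0.38 and -0.38, and none passed (limma, adjusted p from 0.369 to 0.391).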
